A study of Mus musculus with 28 samples.

Results

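The replication-dependent histone genes are described here as the genes whose symbol starts with Hist1h, Hist2h, Hist3h or Hist4h. They are 69 of the 27179 genes listed for chromatin RNA, and 68 of the 15384 genes with an RNA-seq value, Hist1h2af being the one without. They fall into 5 classes by symbol, with 6 genes for the linker histone H1, 19 for H2A (18 with an RNA-seq value), 19 for H2B, 12 for H3 and 13 for H4. Of the 69, 55 lie in the Hist1 group on chromosome 13, 10 in the Hist2 group on chromosome 3, 3 in the Hist3 group on chromosome 11 and 1, Hist4h4, on chromosome 6. They are short, with a median exon length of 469 bp, and 63 consist of a single exon. Hist1h2al and Hist3h2bb-ps are annotated as pseudogenes.

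The cells were mouse embryonic stem (ES) cells of the E14 line, grown in serum with leukaemia inhibitory factor. In the Ssrp1 knock-down (KD), cells received a mixture of lentiviral vectors for the short hairpin RNAs 1 and 2 against Ssrp1, a subunit of the histone chaperone FACT, and control cells received a scrambled hairpin. Puromycin at 2 µg/ml was added 48 h after transfection, and RNA was taken after a further 24 h, so the cells of both groups are a selected, transient population. Ribosomal RNA was depleted and synthetic ERCC RNA was added as a spike-in, giving 4 control and 4 KD libraries, which the study calls biological replicates. Chromatin RNA (2 libraries) and the peak lists of SSRP1 and SUPT16, the FACT subunits, came from E14 cells with no knock-down in their labels.

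Replication-dependent histone genes encode the bulk of the core histones H2A, H2B, H3 and H4, from which nucleosomes are built, and of H1, which binds the linker DNA. They are expressed mainly in S phase, when new chromatin is assembled on replicated DNA. Their mRNAs end in a stem-loop and not in a poly(A) tail, and the stem-loop binding protein SLBP and the U7 snRNP act at this end. Because the RNA here was freed of ribosomal RNA and not selected by poly(A), such transcripts could be sampled.

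The stem-loop is the feature that sets these mRNAs apart, so it was looked for in the first 100 bases after the stop codon, on the coding strand, with the letters GGCTCT or GGCCCT, then TTTN as loop, then AGAGCC or AGGGCC to pair with the first arm (RefSeq, GRCm38.p6). It was found in 61 of 67 members with a coding end and in 3 of 20933 other genes. Those 3 include H2bfm and H3f4, which carry histone names themselves. Representatives of each class are shown, with the stem-loop in capitals.
Hist1h1a, chr13:23764392-23764407, plus strand: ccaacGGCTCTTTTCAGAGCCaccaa
Hist1h2ai, chr13:21716839-21716854, plus strand: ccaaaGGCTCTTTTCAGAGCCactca
Hist2h2bb, chr3:96270171-96270186, plus strand: caaaaGGCTCTTTTCAGAGCCacttt
Hist1h3c, chr13:23745047-23745062, minus strand: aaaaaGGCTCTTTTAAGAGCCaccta
Hist1h4f, chr13:23551291-23551306, minus strand: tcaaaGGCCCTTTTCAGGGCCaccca
Hist2h4, chr3:96262939-96262954, minus strand: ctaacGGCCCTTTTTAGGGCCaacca
The stem differed by class: all 10 H4 genes with a match had the GGCCC stem, and all 51 matches in the other classes, which were 6 for H1, 17 for H2A, 17 for H2B and 11 for H3, had the GGCTC stem. The most common form, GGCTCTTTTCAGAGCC, stood in 41 members. Hist1h2an, Hist1h3g, Hist1h4a, Hist1h4b, Hist1h4j and Hist2h2be had no match, which says only that these letters are not in that window.

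Promoters were compared over 300 bases, 250 before and 50 after the RefSeq start, for the 62 members with an entry. Each motif was searched on both strands. ATTTGCAT, the octamer bound by Oct factors, stood in 13 of the 62, which were 7 H2A and 6 H2B genes, against 1.76% of all 27025 promoters. AAACACAA, the H1 box, stood in 6, of which 4 were H1 genes, against 1.95% of all promoters. CCAAT was found in 53 members (37.8% of all promoters) and TATAAA in 35 (14.2%). Neighbours transcribed away from each other can share a site, which is then counted for both. The same octamer serves Hist1h2aa and Hist1h2ba, Hist1h2ae and Hist1h2bg, and Hist1h2ah and Hist1h2bk. The CCAAT and TATAAA counts also hold shared sites, so members are not independent in these counts. The 250 bases before the start are printed for a H1, a H2A and a H2B gene, with these motifs in capitals. Where the other strand holds the motif, its reverse complement is in capitals.
Hist1h1e, chr13:23622559-23622808, minus strand: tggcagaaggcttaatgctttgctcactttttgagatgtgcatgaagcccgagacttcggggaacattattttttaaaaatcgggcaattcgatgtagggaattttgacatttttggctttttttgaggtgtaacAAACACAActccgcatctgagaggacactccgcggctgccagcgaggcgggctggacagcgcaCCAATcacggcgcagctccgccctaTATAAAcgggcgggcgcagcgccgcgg
Hist1h2ac, chr13:23683960-23684209, minus strand: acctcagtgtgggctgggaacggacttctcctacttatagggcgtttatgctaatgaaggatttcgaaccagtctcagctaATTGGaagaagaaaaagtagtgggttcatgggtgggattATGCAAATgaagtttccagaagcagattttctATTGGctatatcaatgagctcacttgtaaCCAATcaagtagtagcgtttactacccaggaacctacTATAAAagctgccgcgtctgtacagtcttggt
Hist2h2bb, chr3:96269450-96269699, plus strand: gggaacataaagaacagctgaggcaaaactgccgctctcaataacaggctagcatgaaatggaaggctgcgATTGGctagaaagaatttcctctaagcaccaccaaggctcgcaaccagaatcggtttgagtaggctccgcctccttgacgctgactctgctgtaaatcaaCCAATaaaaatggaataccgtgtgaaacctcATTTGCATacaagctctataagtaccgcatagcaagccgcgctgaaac
Relative to the start, the H1 box of Hist1h1e begins at -115, CCAAT at -52 and TATAAA at -27, whereas the octamer begins at -130 in Hist1h2ac and at -48 in Hist2h2bb. A match is a description of the letters only.

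The RNA-seq values are reads divided by the library-size factor of the authors, which did not make the totals equal. All values summed to 825584 to 909417 in control libraries and to 1137290 to 1182580 in KD libraries. Values scaled to equal totals alone were not fitted, so calls near the fold threshold depend on the deposited factor. Control libraries held 4602278 to 6680919 reads on the listed genes and KD libraries 9433193 to 19856032, so low values are less precise in controls. Ssrp1 fell from 235 ± 17.6 to 26.1 ± 2.13 (SD, n = 4 libraries each), or by 3.15 on the log2 scale (limma, adjusted p = 1.18e-22), whereas Supt16 was 319 ± 22.0 in control and 504 ± 20.2 in KD.

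Nearly all of the histone genes had more RNA after Ssrp1 depletion. Of the 68 measured members, 61 were called higher in KD, by limma on log2(value + 0.5) with Benjamini-Hochberg adjustment over all genes, where a call needed a log2 difference over 1 with adjusted p under 0.01. Of the 15384 genes, 8.07% were called higher. No member was called lower by limma, whereas 20.6% of all genes were; at an unadjusted p below 0.05, 67 members were higher and 1 lower, and edgeR and DESeq2 called 61 and 65 higher and 0 lower. In 67 of the 68 every KD library lay above every control library, which held for 35.8% of all genes. The median log2 fold change was 1.43, against -0.03 over all genes, and the range was -0.74 to 2.75. In bulk RNA a change in the fraction of cells that express these genes and a change in RNA per cell cannot be told apart.

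**Figure D1:**
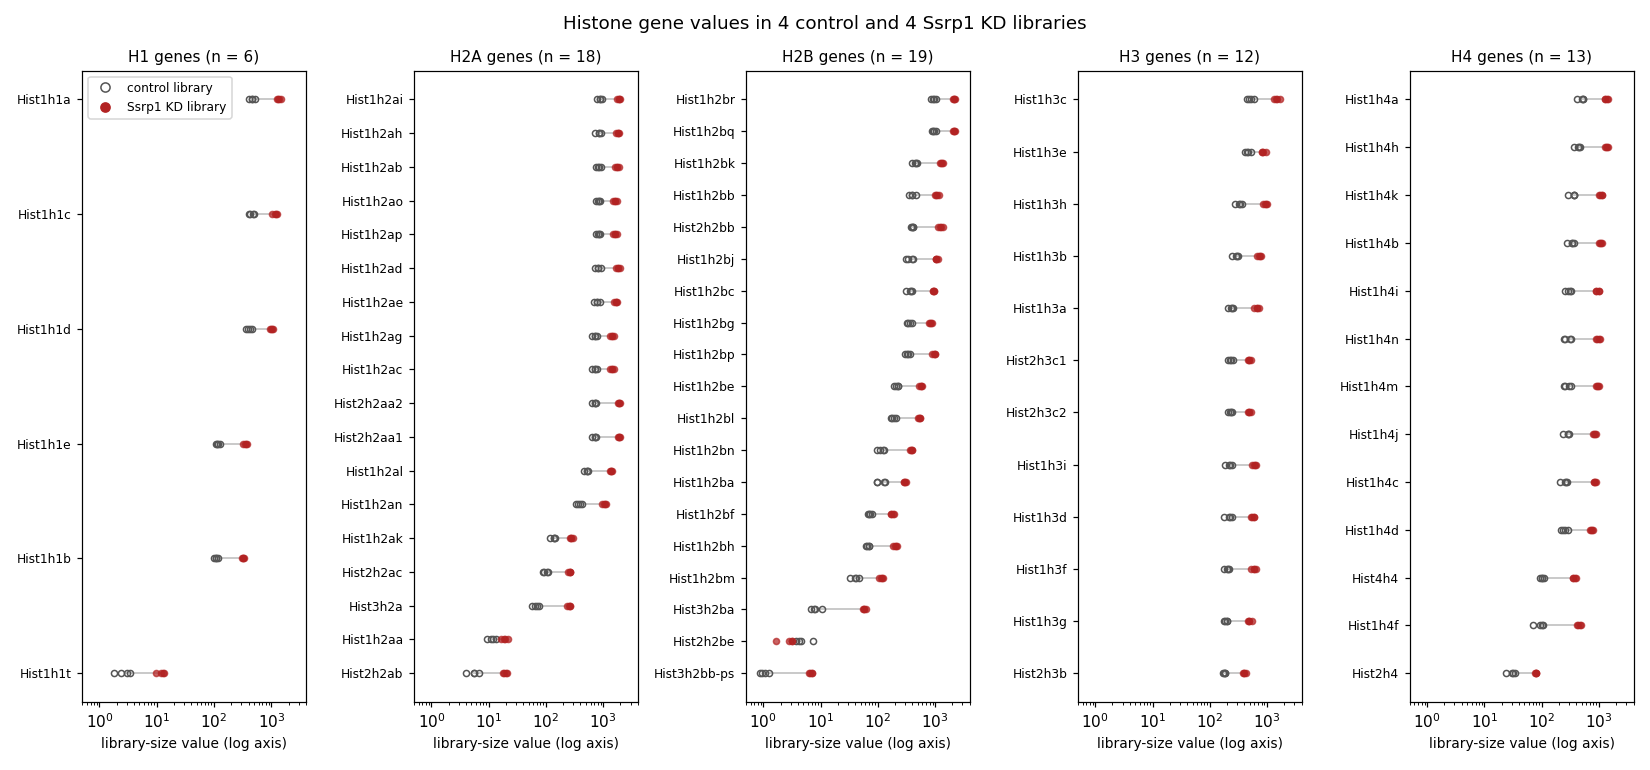
Library-size values (log axis) of the 68 measured histone genes in 5 panels by class, with open circles for the 4 control libraries, filled circles for the 4 Ssrp1 KD libraries and a grey line between the group means. The KD circles lie to the right of the control circles in every gene except Hist2h2be.

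Taken as a sum per library, the members held 25753, 23345, 20839 and 24027 in the control libraries and 59445, 58802, 63078 and 56126 in the KD libraries. They made up 2.72 ± 0.135% of all values in control and 5.10 ± 0.168% in KD (SD, n = 4 each). The lowest KD share, 4.94%, was above the highest control share, 2.83%. The sum rose by 1.34 ± 0.0724 on the log2 scale (SE). All genes together also had a larger sum of values in KD, so the members' share of all values rose less than their sum. The sum counts reads shared by near-identical copies more than once, as shown further on. Members outside the near-identical pairs also share sequence, and the part of shared reads in the sum and in the shares was not tested.

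The 6 H1 genes encode linker histones, and all 6 were called higher, with a median log2 fold change of 1.56. Hist1h1a, the most abundant of them over the 8 libraries, had values of 523, 457, 406 and 467 in the control libraries and 1306, 1357, 1466 and 1233 in the KD libraries. The groups were far apart, and the log2 fold change was 1.54 ± 0.0699 (SE, adjusted p = 7.45e-17, limma). Hist1h1d had the smallest rise, from 460, 399, 368 and 425 in control to 989, 1026, 1081 and 954 in KD. This was a log2 fold change of 1.30 ± 0.0651 (adjusted p = 5.66e-16, limma). Hist1h1t, known as the testis linker histone, was low in all libraries, at 3.40, 2.41, 3.05 and 1.78 in control and 13.4, 12.7, 12.0 and 9.86 in KD. It had the largest H1 change, 2.00 ± 0.186, on few reads. Hist1h1c read 503, 427, 406 and 473 in control and 1178, 1192, 1250 and 1048 in KD, a log2 fold change of 1.37.

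The 18 measured H2A genes had the lowest class median, 1.11, and 13 of them were called higher. Hist1h2ai had the highest mean, with 953, 878, 772 and 875 in control and 1856, 1877, 1985 and 1732 in KD. Its KD libraries were all above its control libraries, and the log2 fold change was 1.10 ± 0.0693 (adjusted p = 5.93e-14, limma). Hist3h2a, which lies alone with a H2B pair on chromosome 11, rose most, from 74.6, 63.5, 56.2 and 69.5 to 253, 260, 265 and 232. Its log2 fold change was 1.93 ± 0.0707 (adjusted p = 1.09e-18, limma). Hist1h2aa, known as a testis H2A gene, showed the smallest difference, with 11.03, 9.47, 13.3 and 11.9 in control and 18.8, 19.5, 21.8 and 16.5 in KD. Its log2 fold change of 0.73 ± 0.123 was under the fold threshold, although its groups did not overlap. Hist1h2ag also stayed just under it, at 780, 732, 643 and 714 in control and 1400, 1447, 1536 and 1338 in KD, with a log2 fold change of 0.997. The other H2A genes without a call were Hist1h2ac (0.99), Hist1h2ao (0.97) and Hist1h2ap (0.97).

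Of the 19 H2B genes, 18 were called higher, with a median log2 fold change of 1.51. Hist1h2bq had the highest mean of its class, with 1041, 924, 864 and 972 in control and 2135, 2124, 2221 and 2083 in KD. It more than doubled (log2 fold change 1.17 ± 0.0673, adjusted p = 8.78e-15, limma), but its exons cannot be told from those of Hist1h2br. Hist2h2bb, whose sequence is its own throughout, read 409, 409, 375 and 398 in control and 1251, 1223, 1392 and 1109 in KD. Its log2 fold change was 1.64 ± 0.0643 (adjusted p = 4.52e-18, limma). Hist3h2ba rose most of all members, from 8.03, 10.5, 6.82 and 7.80 to 56.9, 57.1, 63.3 and 54.2, a log2 fold change of 2.75 ± 0.109. Its neighbour Hist3h2bb-ps, a pseudogene, had the same direction, at a mean of 1.04 in control and 6.75 in KD.

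Hist2h2be was the only member with lower values in KD. It read 3.68, 7.23, 4.13 and 4.51 in control and 2.84, 1.70, 3.11 and 3.13 in KD. The groups did not overlap, but the values stood for a mean of only 31.3 reads in control and 38.5 in KD. The log2 fold change of -0.74 ± 0.231 (adjusted p = 0.0051, limma) was not a call, and it changed sign to 0.16 in the spike-in scaling and to 0.39 after quantile normalisation.

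Of the 12 H3 genes, 11 were called higher, with a median log2 fold change of 1.38. Hist1h3c was the most abundant, with 592, 486, 447 and 533 in control and 1445, 1468, 1652 and 1341 in KD, a log2 fold change of 1.52 ± 0.0754 (adjusted p = 4.12e-16, limma). Hist1h3f rose most, from 215, 199, 175 and 209 to 597, 587, 652 and 528, a log2 fold change of 1.56. Hist1h3e showed the smallest difference, with 523, 446, 410 and 472 in control and 819, 833, 955 and 806 in KD. Its groups did not overlap, and its log2 fold change of 0.88 was under the threshold.

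All 13 H4 genes were called higher, with the highest class median, 1.66. Hist1h4a, with the highest mean, read 534, 519, 420 and 511 in control and 1379, 1252, 1445 and 1272 in KD, a log2 fold change of 1.43 ± 0.0706 (adjusted p = 3.71e-16, limma). Hist1h4f had the largest rise of the class, from 107, 93.1, 70.1 and 102 to 466, 422, 491 and 416. Its log2 fold change was 2.28 ± 0.0865 (adjusted p = 2.49e-18, limma). Hist2h4 had the smallest, at 31.2, 34.3, 23.7 and 29.8 in control and 79.6, 80.3, 76.5 and 80.5 in KD, a log2 fold change of 1.41. The difference between the class medians was not tested, since members of a class share reads.

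Sequence shared between members limits what each value stands for. Every 50-base window of each member's exons was looked up in GRCm38 on both strands. The share of windows found once ran from 0% in Hist1h2ad, Hist1h2ao, Hist1h2ap, Hist1h2bq, Hist1h2br, Hist1h4n, Hist2h2aa1 and Hist2h2aa2 to 100% in Hist1h1a, Hist1h1b, Hist1h1t and Hist2h2bb. Near-identical copies, defined as pairs in which at least 95% of the windows of one lie in the other, were Hist1h2ao with Hist1h2ap, Hist1h2bq with Hist1h2br, Hist1h4m with Hist1h4n and Hist2h2aa1 with Hist2h2aa2. Between the copies Hist1h2bq and Hist1h2br the RNA-seq reads differed by at most 4 in any library, out of 4814 to 36223. Separate draws of that size would have a counting SD of 98.1 or more. The reads differed by at most 38 in Hist1h2ao and Hist1h2ap and by at most 40 in Hist2h2aa1 and Hist2h2aa2, where the smallest counting SDs were 91.4 and 85.1. The values of these 3 pairs were thus closer than separate counts would be, as when the same reads are counted under both names. In Hist1h4m and Hist1h4n the reads differed by 12 to 24 in control, where the counting SDs were 52.1 to 68.8. In KD they differed by up to 165, close to the counting SD of 174 in that library. All 8 libraries lay within the counting SD, but in KD by a smaller margin than in the other 3 pairs, so for this pair the reads do not settle it. In the chromatin RNA libraries, in contrast, Hist1h2ao, Hist1h2ap, Hist1h2bq, Hist1h2br, Hist2h2aa1 and Hist2h2aa2 had 0 counts. Outside the pairs, Hist1h2ad, Hist1h2ah and Hist1h2ai had 0%, 4.44% and 9.88% unique windows, with a median of 12 genome places per window. Their control means in RNA-seq were close, at 816, 826 and 870. The part of shared reads in these values was not tested.

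The higher values in KD were also present in members that share little or no sequence. All 4 members with 100% unique windows, Hist1h1a, Hist1h1b, Hist1h1t and Hist2h2bb, were called higher. Of the 11 members with at least 90% of their windows unique, a subset chosen after the data were seen, 9 were called higher, with a median log2 fold change of 1.54. They are the 6 H1 genes, Hist2h2bb, Hist2h4 and Hist3h2a. The 2 others were Hist1h2aa and Hist2h2be. In the 13 members with under 10% unique windows, 11 were called, with a median of 1.17. Hist1h2be, with 88.4% unique windows, has an exon that overlaps Hist1h1e, and their values of 559 and 350 in KD cannot be fully separated.

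**Figure D2:**
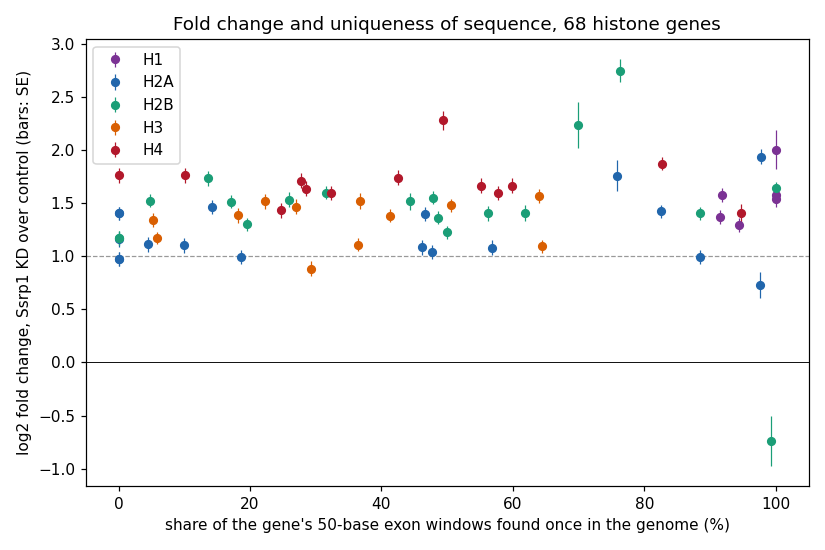
Log2 fold change of Ssrp1 KD over control (vertical axis, bars are SE) against the share of 50-base exon windows found once in the genome (horizontal axis, percent) for 68 histone genes, coloured by class. Values above the dashed line at 1 occur over the whole range from 0% to 100%, and the point below 0 is Hist2h2be.

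The size of the change depended on the scaling. In the spike-in scaling, 67 members were called higher with a median log2 fold change of 2.45, but the median of all genes was then 0.95 and 48.1% of them were called higher and 7.03% lower. Spike-in values varied more between libraries, the members' sum being 17306, 13969, 13973 and 21505 in control and 54731, 108910, 101900 and 84423 in KD. Measured from the median of all genes, the members stood 1.46 higher by library size and 1.50 higher by spike-ins. After quantile normalisation 17 were called, with a median of 0.78 and an excess of 0.73 over all genes, where 9.87% of all genes were called higher. Every member but Hist2h2be kept its direction in these 3 scalings.

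**Figure D3:**
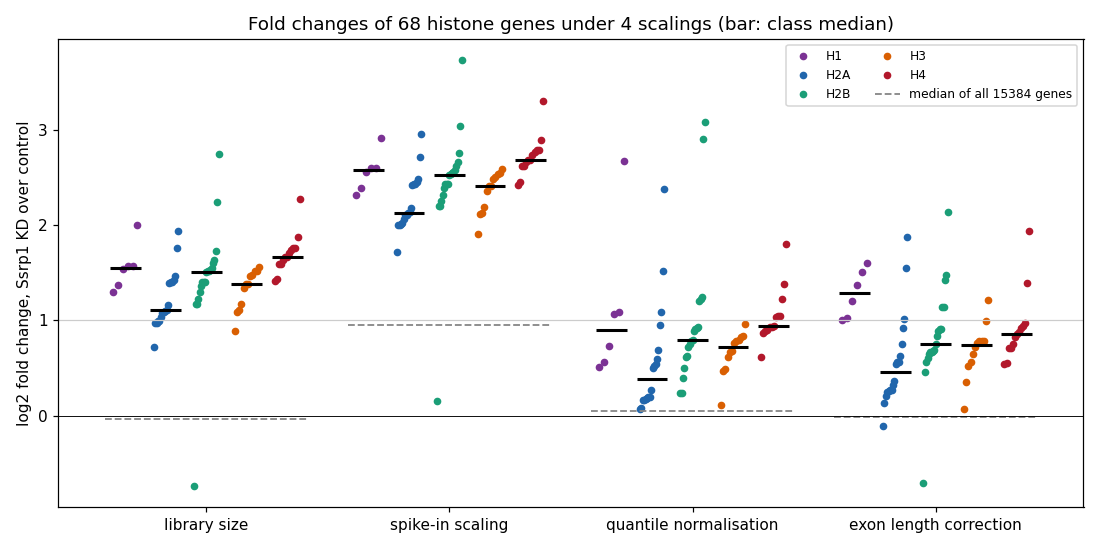
Log2 fold change of Ssrp1 KD over control (vertical axis) of 68 histone genes by class (colours) under 4 scalings, with black bars for the class medians and dashed grey lines for the median of all 15384 genes. The class medians lie above the dashed line in all 4 scalings, and H2A has the lowest median in each.

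Transcript length moved with the change over the whole transcriptome. A loess curve over all genes gave a shift of 0.72 at 500 bp of exon and of -0.42 at 8000 bp. When this curve was subtracted, 17 members were called, with a median log2 fold change of 0.75 (6.09% of all genes were called higher), and Hist1h2aa and Hist2h2be were below 0, at -0.11 and -0.71. Among the 54 members of at most 1000 bp, 49 were called higher (90.7%), whereas among the 1047 other protein-coding genes of at most 1000 bp 264 were (25.2%). Among the 14 longer members 12 were called (85.7%), against 5.90% of 12939 other protein-coding genes. The H1 genes, with a median exon length of 1237 bp, kept a median of 1.29 after the correction and the H4 genes, at 312 bp, one of 0.86.

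SSRP1 and SUPT16 peaks were listed near most histone genes of the Hist1 group, at 42 and 41 of 55. A SSRP1 peak lay within 1000 bp of the start of 47 of the 69 members (15.2% of all 27179 genes) and a SUPT16 peak within that distance of 47 (8.87%). Both were present at 46 members (5.21% of all genes). By the nearest-gene assignment of the authors, 44 members had a SSRP1 peak (23.9% of all genes), 43 a SUPT16 peak (11.4%) and 42 both (7.72%). Of the 3846 genes with the highest control values, 36.95% had a SSRP1 peak and 23.95% a SUPT16 peak within 1000 bp of the start.

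The peaks at histone genes were long and often spanned neighbours. The 29 SSRP1 peaks had a median length of 1666 bp (294 to 4508 bp), against 392 bp for all other SSRP1 peaks, and 21 of them were at least 1000 bp long, as were 12.8% of all 10114. The 38 SUPT16 peaks had a median of 910 bp (210 to 4060 bp), against 280 bp for the others. The longest SSRP1 peak, chr13:22040102-22044610 (mm10, as listed by the authors), lay over the starts of Hist1h2ag, Hist1h2bj and Hist1h4i, and chr13:21714840-21718956 over those of Hist1h2ai, Hist1h2bl and Hist1h3h. A SUPT16 peak of 4060 bp covered the same 3 starts as the latter. In all, 16 SSRP1 and 21 SUPT16 peaks served more than 1 member, so members are not independent in their peaks. Of the 29 SSRP1 peaks 27 overlapped a SUPT16 peak, and of the 38 SUPT16 peaks 36 overlapped a SSRP1 peak.

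**Figure D4:**
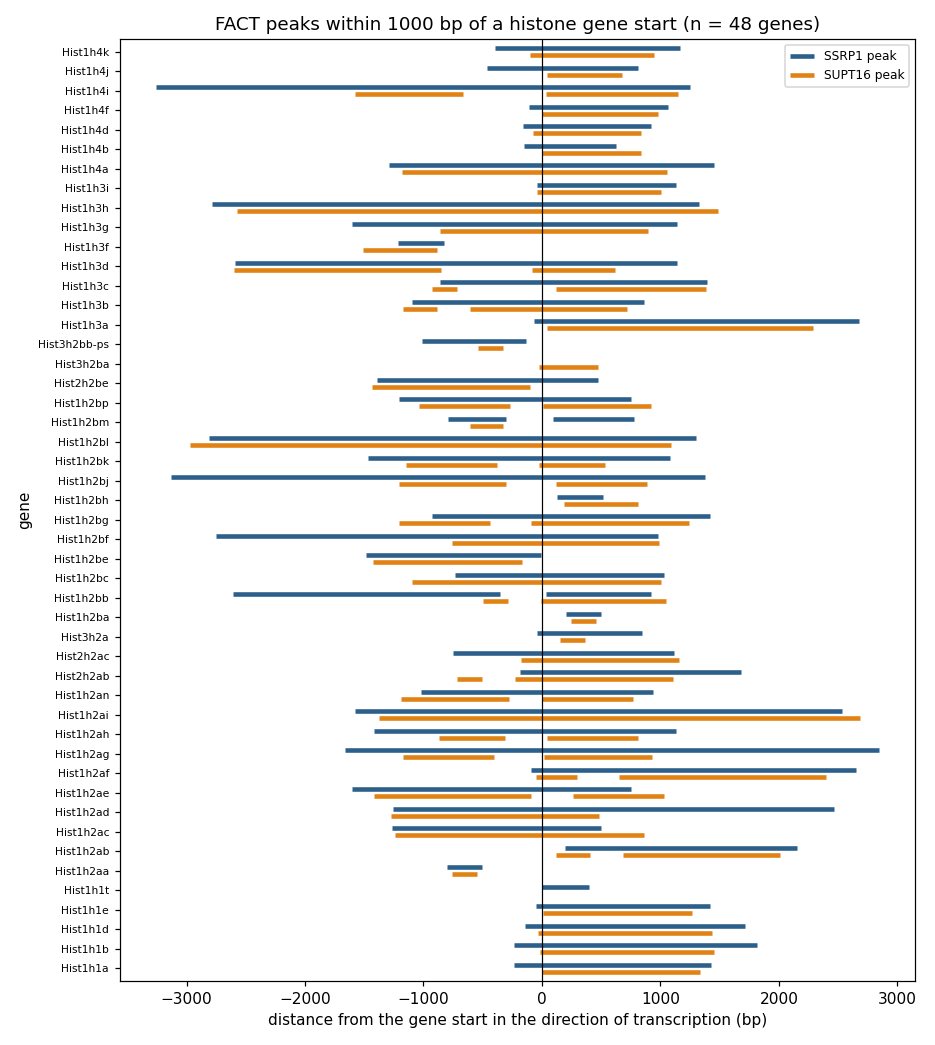
SSRP1 peaks (blue) and SUPT16 peaks (orange) within 1000 bp of the start of 48 histone genes, one row per gene, along the distance from the start in the direction of transcription (bp). SSRP1 peaks contain the start of 37 genes and SUPT16 peaks that of 25, and 46 rows hold both colours.

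Members without a peak had features of their own. None of the 8 genes in near-identical pairs had a SSRP1 or SUPT16 peak within 1000 bp, whereas 47 of the other 61 had a SSRP1 peak. The part of multiple mapping in this was not tested, and the treatment of reads with several matches was not stated. Hist2h2bb and Hist1h1c, which are 100% and 91.5% unique, had no peak of either subunit within 1000 bp, although Hist2h2bb was the nearest gene of one of each, the nearest SSRP1 peaks being 3736 and 5319 bp from the start. Hist4h4, alone on its chromosome, had none either. The 46 measured members with a SSRP1 peak within 1000 bp and the 22 without had similar changes in KD, with 42 and 19 called higher and medians of 1.47 and 1.40. No test was made of this difference.

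The H1 genes with an assigned peak of both subunits were Hist1h1a, Hist1h1b, Hist1h1d and Hist1h1e. The H2A genes were Hist1h2ab, Hist1h2ac, Hist1h2ae, Hist1h2af, Hist1h2ag, Hist1h2ah, Hist1h2ai, Hist1h2an, Hist2h2ab and Hist2h2ac. The H2B genes were Hist1h2ba, Hist1h2bb, Hist1h2bc, Hist1h2be, Hist1h2bf, Hist1h2bg, Hist1h2bh, Hist1h2bj, Hist1h2bk, Hist1h2bl, Hist1h2bm, Hist1h2bp, Hist2h2bb and Hist2h2be. Among H3 genes they were Hist1h3a, Hist1h3b, Hist1h3c, Hist1h3d, Hist1h3g, Hist1h3h and Hist1h3i, and among H4 genes Hist1h4a, Hist1h4b, Hist1h4d, Hist1h4f, Hist1h4i, Hist1h4j and Hist1h4k. Except for Hist1h2af, which has no RNA-seq value, their values by library are in the plot of values by class.

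Chromatin RNA gave few counts on the histone genes. The 2 libraries held 3441643 and 3393923 counts, of which 69.9% and 67.3% fell on the 10 most counted genes, and the members together took 1363 and 1802. This was a CPM (counts per 1e6 counts) of 396 (exact binomial 95% interval 375 to 418) and of 531 (507 to 556), and both intervals cover counting error only. Members with a count numbered 60 and 62. In 7 members no count was seen in either library, which allows up to 3 counts or 0.872 and 0.884 CPM, and 6 of these belong to near-identical pairs. Per kb of exon the median of the 68 members with an RNA-seq value was 7.54 CPM, against 0.70 CPM for all 15384 genes.

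By counts, which grow with length, H1 genes took the largest class share of chromatin RNA. Hist1h1d had 143 and 207 counts, the most of any member, followed by Hist1h1a with 73 and 97, Hist1h1c with 73 and 86, Hist2h2bb with 65 and 93, and Hist1h2ag with 61 and 74. The H1 class took 26.9% and 27.0% of the members' counts, but 6.62% of the members' values in the control RNA-seq libraries. The H2A class took 21.3% and 19.9% of the counts and 41.8% of the values. Per kb of exon the order was another: Hist2h2bb (46.9 CPM per kb), Hist1h2ad (44.7), Hist1h2ag (41.8) and Hist1h4c (34.7) stood above the highest H1 gene, Hist1h1a (33.3). The class medians per kb were 19.2 for H4, 15.2 for H1, 7.24 for H2B, 7.18 for H3 and 4.99 for H2A. The tables were scaled separately and treat shared reads differently, so no test was made across them.

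The replication-independent histone genes, whose expression is not limited to S phase, also tended upwards. Of 12 measured, 7 were called higher (58.3%) and 1 lower (8.33%), where 8.07% and 20.6% of all genes were. Their median log2 fold change was 1.03. H2afz, which encodes the variant H2A.Z, rose most, from 52.2 ± 3.41 to 186 ± 12.4 (log2 fold change 1.83, adjusted p = 5.69e-19, limma). H2afx, H2afv, H3f3a, H3f3b, H1f0 and H1fx were the other calls. H2afy3 was 4.82 ± 0.628 in control and 1.12 ± 0.220 in KD, which was -1.72 on the log2 scale and -0.88 in the spike-in scaling. H3f3b, used by all cells, was listed at only 1.98 ± 1.35 in control.

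The factors that act on histone genes had no call. None of the 21 measured genes for histone transcription and 3′ processing was called in either direction by limma, edgeR or DESeq2. Of all genes, 8.07% were called higher and 20.6% lower by limma. At an unadjusted p below 0.05, 17 of the list were higher and 1 lower. The same genes also had an adjusted p under 0.01 (limma), so they missed a call by the fold threshold alone. The median of the 21 was 0.51. These are long genes, with a median exon length of 3805 bp, and with the length correction their median was 0.58, beside 0.75 for the histone genes. The difference between the lists was not tested. Zfp473, a factor of the U7 processing complex, had the largest difference, 52.1 ± 6.96 against 101 ± 4.10 (log2 fold change 0.95). Slbp, the stem-loop binding protein, was 108 ± 9.20 in control and 181 ± 5.84 in KD (0.75). Npat, the S-phase coactivator of histone genes, was 93.3 ± 3.46 and 106 ± 1.60 (0.19), and Pou2f1, which encodes Oct1, had the lowest value, -0.39.

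The median of the cell cycle genes relative to that of the histone genes depended on the length correction. Of 25 genes for S-phase entry and replication, 5 were called higher and 0 lower (24 and 0 at an unadjusted p below 0.05; 7 and 0 by DESeq2, 5 and 0 by edgeR), with a median of 0.83, or 0.92 with the length correction. The 5 calls are 20.0% of the list, where 8.07% of all genes were called higher. The calls were Gins2 (1.38), Ccne2 (1.30), Cdc45 (1.15), Tk1 (1.14) and Gins1 (1.12), and Pole had the lowest value, 0.06. Of 16 mitosis genes 1 was called higher, Bub1 (1.41), which is 6.25% of the list and no more than the 8.07% of all genes. Their median was 0.70, or 0.75 with the length correction, and Mki67 had the lowest value, 0.04. None was called lower by limma, edgeR or DESeq2, nor at an unadjusted p below 0.05. After the correction the median of the S-phase genes was above and that of the mitosis genes level with the 0.75 of the histone genes, and no test of these differences was made.

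Markers of cell identity moved with the groups as well. Of 10 ES cell markers 6 were called higher (60.0%, against 8.07% of all genes), with a median of 1.12. Their summed value was 1647 to 1769 in control and 4315 to 4685 in KD. Dppa5a rose most (1.84) and Tbx3 had the lowest value (0.25). Of 14 measured markers of other cell types 11 were called lower (78.6%, against 20.6% of all genes) and 1 higher (7.14%, against 8.07%). Their median was -1.62, and 4 more (Foxa2, Elf5, T and Neurog1) had no value. Col1a1 fell most (-2.58) and Tubb3 was the one called higher (1.69). The summed value of the 14 was 171 to 213 in control and 169 to 181 in KD. Tubb3, with means of 33.6 in control and 108 in KD, offset falls of other markers in this sum. None of the 14 was below 1 in all libraries. The part of cell composition in the histone result was not tested.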

How the data were processed

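RNA-seq values were the signal deposited by the authors: per the file headers, reads per gene divided by a library-size factor, with a spike-in scaled version in the same table. Reads had been aligned with STAR, and the tool list in the submitters' notes names versions 2.4.1b, 2.4.2a and 2.5.1b. Dividing by the value of 1 read (0.0580 to 0.179) gave whole reads within 0.1 for 100% of values. The chromatin RNA counts per gene were deposited by the authors as raw counts. The 819 rows without a symbol could not match the rule for members, but they stayed in the totals and among the 27179 genes. SSRP1 and SUPT16 peaks were called by the authors on 2 replicates together after Bowtie2 2.2.6 alignment to mm10, and assigned to the nearest gene, so they hold no value per replicate. The kit keeps strand, but whether counting used it was not stated. Tables with only the authors' own fold changes and p-values, per gene or exon, were not used.

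Log2(value + 0.5) was fitted with limma 3.58.1 (trend, R 4.3.3) on all 15384 genes and 8 libraries. A call needed an absolute log2 fold change over 1 and an adjusted p under 0.01. Alternatives were edgeR 4.0.16 and DESeq2 1.42.0 on the recovered reads, pseudocounts of 0.1 and 2, a mean value over 5, spike-in, TMM, size-factor and quantile scaling, a loess correction for exon length, a replicate block and leaving out each library. The TMM alternative nearly repeats the deposited scaling, with a median of 1.43 for the members in both. On simulated data with 200 of 15384 genes changed by a fold of 3, limma, edgeR and DESeq2 each recovered 100% with 0 false calls. The changed genes were drawn from well-counted ones, with a fixed spread and without a length shift or shared reads. The simulation therefore does not bear on low genes or on calls near the fold threshold. Sequences came from RefSeq (GRCm38.p6, the same assembly as mm10). P-values set the difference between groups against the spread between libraries, moderated over all genes in limma. Binomial intervals cover counting error only.

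Members and lists were chosen with earlier results of these data known. Named genes are, in each class, the member with the highest mean, the largest rise and the smallest rise or largest fall, the 5 with most chromatin RNA counts, any called in a direction with 8 or fewer calls, and, by symbol with values in the plot, those with assigned peaks of both subunits. Of the other lists, called genes and both extremes are named. Other genes were named after their values were seen.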

Additional observations from a re-analysis of the deposited data

How the results depend on the processing

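Of 68 histone genes, 61 were called higher. Leaving out 1 library gave 60 to 65 calls, a median log2 fold change of 1.37 to 1.48 and a summed log2 ratio of 1.28 to 1.39, with 0 called lower. Quantile normalisation gave 17 calls, a median of 0.78 and a summed ratio of 0.55, the exon length correction 17 calls and a median of 0.75, and spike-in scaling a median of 2.45 and a summed ratio of 2.37. In the members with at least 90% unique windows, an alternative chosen after seeing the data, 9 of 11 were called and the summed ratio was 1.49. By adjusted p alone 1 gene was lower, Hist2h2be. Hist2h2be changed sign to 0.39 by quantile and 0.16 by spike-in scaling, and Hist1h2aa to -0.11 with the length correction. Over the named genes and alternatives 371 values kept their direction and call, 14 lost and 11 gained a call and 3 changed sign. Chromatin RNA rose from 463 to 1471 CPM without the 10 most counted genes.

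Calls in the other lists moved with the scaling. By quantile and spike-in scaling respectively, where 9.87% and 48.1% of all genes were called higher and 10.8% and 7.03% lower, the replication-independent histones had 3 and 11 higher and 0 and 0 lower (7 and 1 by library size, and 0 lower with a mean over 5), S-phase genes 2 and 25 higher (5), mitosis genes 0 and 16 higher (1), ES markers 1 and 10 higher (6), and markers of other cell types 4 and 3 lower (11, and 6 with a mean over 5). Of the processing factors 19 were higher by spike-ins, 1 with the length correction and 0 to 1 on leaving out a library, the 1 being without control replicate 1, and the length correction gave 2 mitosis genes. The cause was not tested.

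Replicate numbers gave no pairing, since deviations of same-numbered libraries correlated between -0.0570 and 0.0175, and the replicate block left 61 calls. Control libraries hold fewer reads, which limits low genes such as Hist2h2be.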
